A study of Rattus norvegicus with 4 samples.

Results

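Histone deacetylases were followed in rat ovaries cultured with or without anti-Müllerian hormone (AMH), a TGF-beta family hormone secreted by granulosa cells. The group comprised 10 genes, Hdac1 to Hdac8, Hdac10 and Hdac11, and all 15 probe sets that the platform annotation gives to 1 of these symbols alone, out of 31099 probe sets on the array. The genes were chosen by family name with their AMH and control values on these same 4 arrays already known, so their differences between the groups are given as a description, without p-values. No probe set was listed under Hdac9 alone, and that gene was not analysed here. Whole ovaries of female rat pups (Rattus norvegicus, strain not given in the sources used here) were removed on postnatal day 4 and kept for 10 days on floating filters in medium with insulin, transferrin, ascorbic acid and albumin. The control ovaries had no addition (2 pools) and the AMH ovaries received 50 ng/mL AMH (2 pools), with about 10 ovaries to a pool and 1 Affymetrix array to a pool. From the series title, the aim was to find transcripts that change when AMH holds back primordial follicles from becoming primary follicles.

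Histone deacetylases remove acetyl groups from lysines of histones and other proteins, which in chromatin is associated with lower transcription. Class I enzymes (HDAC1, HDAC2, HDAC3 and HDAC8) are mostly nuclear, and HDAC1, HDAC2 and HDAC3 work as the catalytic subunits of corepressor complexes. Class IIa enzymes (HDAC4, HDAC5 and HDAC7) have weak activity of their own and act as signal-dependent partners of transcription factors such as MEF2, class IIb enzymes (HDAC6 and HDAC10) are largely cytoplasmic, and HDAC11 stands alone in class IV. In mouse oocytes HDAC1 and HDAC2 can stand in for each other, and growing follicles fail when both are lost.

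The sequences just upstream of 3 class I genes are shown because these genes had the largest and the smallest differences of the class: Hdac1 and Hdac3 were lower with AMH on every array, and Hdac2 was nearly level. RefSeq windows (assembly GRCr8) were found for 9 of the 10 genes, all but Hdac11, and each sequence is the 250 bases before the annotated start, 5′ to 3′ on the gene's strand. Hdac1 lies at chr5:147165388-147165637 (minus strand), Hdac2 at chr20:42102877-42103126 (plus strand) and Hdac3 at chr18:30041026-30041275 (minus strand). Capitals mark GGGCGG, the GC box bound by SP1-type factors, and CCAAT, bound by NF-Y, each on either strand.
Hdac1: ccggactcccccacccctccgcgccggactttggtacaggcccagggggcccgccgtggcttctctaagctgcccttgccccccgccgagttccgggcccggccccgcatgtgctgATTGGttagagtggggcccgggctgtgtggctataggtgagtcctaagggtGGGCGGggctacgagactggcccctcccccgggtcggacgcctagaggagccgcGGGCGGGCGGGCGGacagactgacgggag
Hdac2: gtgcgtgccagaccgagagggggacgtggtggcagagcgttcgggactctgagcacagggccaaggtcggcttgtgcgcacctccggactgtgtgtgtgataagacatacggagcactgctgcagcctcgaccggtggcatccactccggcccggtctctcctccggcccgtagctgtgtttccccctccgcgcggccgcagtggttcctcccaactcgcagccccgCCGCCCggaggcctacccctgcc
Hdac3: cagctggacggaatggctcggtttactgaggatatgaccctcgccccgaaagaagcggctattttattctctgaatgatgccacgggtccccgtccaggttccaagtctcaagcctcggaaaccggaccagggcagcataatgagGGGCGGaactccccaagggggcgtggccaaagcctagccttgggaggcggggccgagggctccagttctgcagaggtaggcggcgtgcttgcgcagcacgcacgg

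The Hdac1 window held 4 GC boxes, 3 of them overlapping each other between 29 and 16 bases before the start, and 1 CCAAT on the opposite strand. Hdac2 held 1 GC box, on the opposite strand, and Hdac3 held 1. A window with several GC boxes was not particular to Hdac1. Of the windows not shown, Hdac6 held 4, Hdac4 3, Hdac5 and Hdac10 1 each, and Hdac7 and Hdac8 0. Hdac4, Hdac5 and Hdac6 also held 2 CCAAT each. Among all 33469 windows of 250 bases, 30.5% held GGGCGG and 34% held CCAAT. The motif of BMP-activated SMADs, GGCGCC, was in 8.69% of all windows and in none of the 9 deacetylase windows. The Hdac1 window had 23 CG dinucleotides, that of Hdac2 also 23 and that of Hdac3 18, beside a median of 5 over all windows. The matches are letters in a window and say nothing of occupancy, which was not measured.

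Before the values, the state of the arrays is given. For GAPDH, signal at the 3′ end over signal at the 5′ end, a sign of shortened RNA, was 1.17 to 1.27 on control and 6.37 to 6.56 on AMH arrays, and for beta-actin 3.17 to 4.6 and 10.7 to 14.4. Chip identifiers ended in 2 different strings, 0 of which occurred in both groups, so whatever they stand for and AMH cannot be told apart. Several markers of the labelled ovary were bright on all 4 arrays, among them Zp3 (1977.8 to 2721.8) and Foxl2 (395.1 to 617). Gdf9 was bright too but lower with AMH, at 1724.9 and 1732.5 in control and 453.7 and 317.7 with AMH. Amhr2 was higher with AMH, at 521.3 and 366.1 in control and 634.2 and 812.6 with AMH. Others were dim: Cyp19a1 read 21.2 to 42.6, and Cyp11a1, at 3.9 to 24.7, was too dim to test. Bmp15 read 115.2 to 147.5 in control and 22.3 to 22.6 with AMH, and Sohlh1 218.8 to 248.5 and 35.5 to 75.9. The oocyte genes were split: Gdf9, Bmp15, Sohlh1 and Ooep were called lower, and Zp2 and Zp3 were not called. Zp2 (2466.1 to 3388.9) and Zp3 make up much of the oocyte sum given next. Summed over the brightest probe set of each marker, oocyte genes gave 9566.4 to 10275.4 in control and 7221 to 7671.5 with AMH (4 of 6 called lower), granulosa genes 2834.8 to 3324.3 and 4560 to 6091.1 (2 of 8 higher), and theca and stroma genes 6563.9 to 6733.9 and 8101.6 to 9153.8 (1 of 5 tested higher). Endothelial genes gave 731.9 to 769 and 703.1 to 794.6 (0 of 4 called by limma, and 0 at an unadjusted p under 0.05), macrophage and leukocyte genes 698.6 to 778.1 and 623 to 1107.9 (1 of 6 higher), smooth muscle genes 445.3 to 489.1 and 224.9 to 369.9 (2 of 5 lower), and red blood cell genes 1217.6 to 1406.1 and 84.5 to 100.3 (1 of 2 lower, Hbb). None of these markers was listed at 0, and in such whole-organ RNA fewer cells of a type and less RNA per cell cannot be told apart.

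Values below are probe set intensities as scaled by the authors, and differences are AMH minus control after log2(intensity + 16), each ± its standard error in a limma fit of all tested probe sets (n = 2 arrays per group). The scale understates changes of dim probe sets. A probe set was tested if it was not among the dimmest 40% by mean, which corresponds to an intensity of about 27.8. Of the 15 deacetylase probe sets 11 were tested, at least 1 for each gene, and 4 were too dim. Probes differ in how strongly they bind, so intensities of different probe sets were not set against each other.

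**Figure D1:**
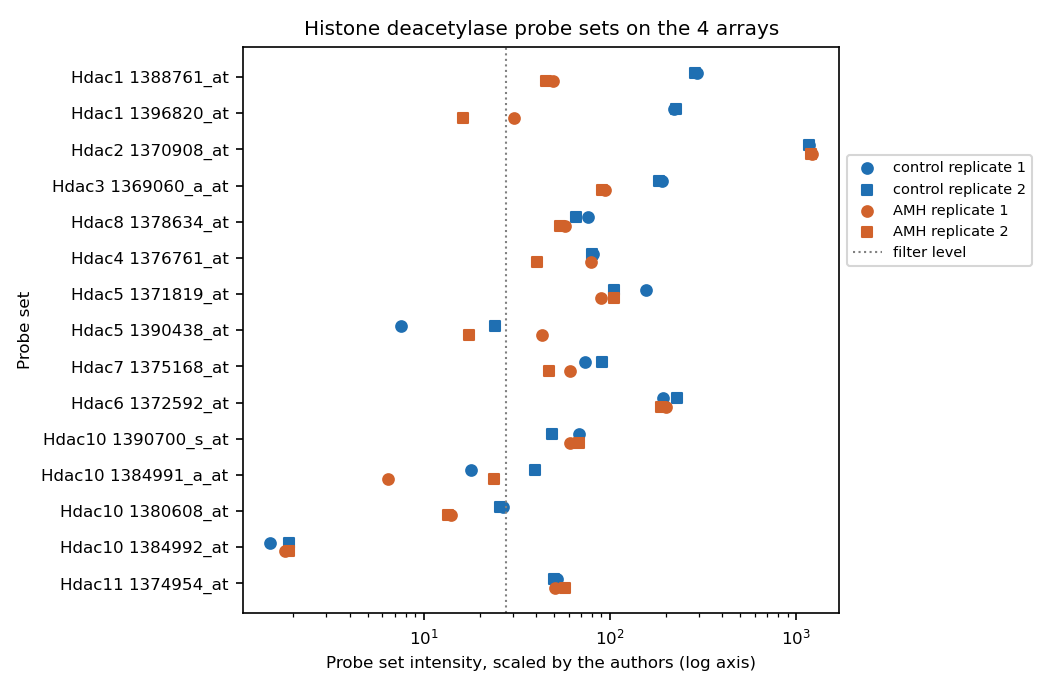
Intensity of all 15 histone deacetylase probe sets (rows) on each of the 4 arrays (log axis), control in blue and AMH in orange, circles for replicate 1 and squares for replicate 2, with the filter level dotted. Both Hdac1 probe sets and the Hdac3 probe set show AMH arrays well below the control arrays, while the Hdac2 points nearly coincide.

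Hdac1, the class I enzyme of the Sin3, NuRD and CoREST complexes, was the family member with the largest difference. Its brighter probe set (1388761_at) read 291.4 and 286.9 in control and 49.6 and 45.2 with AMH. The second Hdac1 probe set (1396820_at) read 221.5 and 225.2 in control and 30.5 and 16.3 with AMH. On both probe sets the groups stood far apart, the lowest control array at 5.78 times and 7.26 times the highest AMH array. The difference was -2.27 ± 0.19 (4.82-fold) for the first and -2.63 ± 0.24 (6.18-fold) for the second. Of the 18625 tested probe sets, 81 had a more negative difference than the first and 31 than the second. The AMH mean of the second, 23.4, lay under the filter level, so its size hangs on the added constant (-3.26 for a constant of 1, -1.72 for 64), and that of the first did so less (-2.59 and -1.66).

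Both tested Hdac1 probe sets were lower with AMH. Their differences lay 0.36 apart, against a median of 0.59 over the 1994 genes with exactly 2 tested probe sets (quartiles 0.28 and 1.01). Of these 1994 genes, 624 had a smaller gap than Hdac1. Both probe sets were called lower for 73 of them, 1 was lower and the other not called for 444, and 1 was higher and the other lower for 48. How the Hdac1 gap compared with other genes changed with the constant, since the second probe set was so dim with AMH: it was 0.68 with 1 added before the log, beside a median of 0.69 over such genes, and 0.057 with 64 added, beside 0.42. It was 0.57 without AMH replicate 1 (median 0.61) and 0.15 without AMH replicate 2 (median 0.62). RefSeq names 18 Hdac1 pseudogenes in the rat genome, and whether the Hdac1 probes also match their transcripts was not tested.

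Hdac2, the close paralogue of Hdac1 that shares its complexes, did not follow it. Its probe set (1370908_at) read 1166.9 and 1169.4 in control and 1218.5 and 1191.7 with AMH. The AMH arrays were slightly above the control arrays, and the difference of 0.04 ± 0.14 was smaller than its error. The level position of Hdac2 rests on the scaling of the arrays: with arrays scaled to the hybridization controls, which also moved the median of all tested probe sets from 0.02 to -0.39, Hdac2 gave -0.43. Relative to that shift Hdac2 stayed close to the median probe set, and Hdac1 lay at -2.68 and -3.00. A gene with 1 probe set has no second reading on the array to compare.

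Hdac3, the catalytic subunit of the NCoR and SMRT corepressors, was lower with AMH on every array. Its probe set (1369060_a_at) read 189 and 182.2 in control and 94.4 and 91 with AMH. Replicates lay close together in both groups, and AMH arrays averaged 49.9% of the control mean. The difference was -0.89 ± 0.18 (1.85-fold). Hdac3 kept this direction in all 14 settings in which its probe set was fitted, the reported one included, from -1.32 with hybridization control scaling to -0.67 with 64 added.

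Hdac8, a class I enzyme that works outside these complexes and deacetylates the cohesin subunit SMC3, differed little. It read 76.2 and 65.4 in control and 57 and 53.6 with AMH. The groups did not overlap, the control arrays lay 0.18 log2 apart, and the difference was -0.28 ± 0.22. Within class I the differences thus ran from -2.63 at the second Hdac1 probe set to 0.04 at Hdac2.

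The class IIa genes all had lower AMH means at their tested probe sets, by 0.35 to 0.49 log2. Hdac7, best known from endothelium and thymocytes, read 73.6 and 90.7 in control and 61.3 and 46.8 with AMH, a difference of -0.49 ± 0.23 without overlap of the groups. Hdac4, a repressor of MEF2 in muscle and cartilage, read 81.2 and 80.2 in control and 78.8 and 40.5 with AMH. Its first AMH array stood with the controls and the second well below them, and the difference of -0.40 ± 0.28 became -0.03 without AMH replicate 2 and -0.78 without AMH replicate 1.

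Hdac5, a class IIa enzyme controlled by calcium-dependent kinases, had a tested and an untested probe set that differed in direction. The tested one (1371819_at) read 156 and 104.6 in control and 89.1 and 105.3 with AMH. Its groups overlapped, and the difference of -0.35 ± 0.23 was -0.10 without control replicate 1 and -0.61 without control replicate 2. The other (1390438_at) read 7.6 and 24 in control and 43 and 17.6 with AMH, with a mean below the filter and replicates that differed more than the groups. Nothing about agreement can be read from that dim probe set.

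The class IIb and IV genes were near level. Hdac6, which deacetylates tubulin and binds ubiquitin, read 191.5 and 228.5 in control and 199.4 and 187.7 with AMH, a difference of -0.10 ± 0.18 with overlapping groups. Hdac11, which removes long acyl chains from lysine, read 52 and 50.3 in control and 50.5 and 57.2 with AMH, a difference of 0.06 ± 0.23. Neither difference exceeded its error. With hybridization control scaling they were -0.55 for Hdac6 and -0.31 for Hdac11. Hdac6 gave -0.22 without control replicate 1 and 0.01 without control replicate 2, and Hdac11 gave 0.12 without AMH replicate 1 and -0.01 without AMH replicate 2.

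Hdac10, a polyamine deacetylase, had 4 probe sets, of which 1 was tested. That one (1390700_s_at, a type whose probes can match more than 1 transcript) read 68.4 and 48.6 in control and 60.8 and 67.8 with AMH, a difference of 0.12 ± 0.24 with overlapping groups (-0.26 with hybridization control scaling). The control arrays decided its sign, with 0.31 without control replicate 1 and -0.07 without control replicate 2. Of the dim ones, 1380608_at read 26.7 and 25.8 in control and 14 and 13.5 with AMH, without overlap. The probe set 1384991_a_at read 17.9 and 39.7 in control and 6.4 and 23.8 with AMH, and 1384992_at lay between 1.5 and 1.9 on all arrays. As for Hdac5, nothing about agreement can be read from these 3 dim probe sets.

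**Figure D2:**
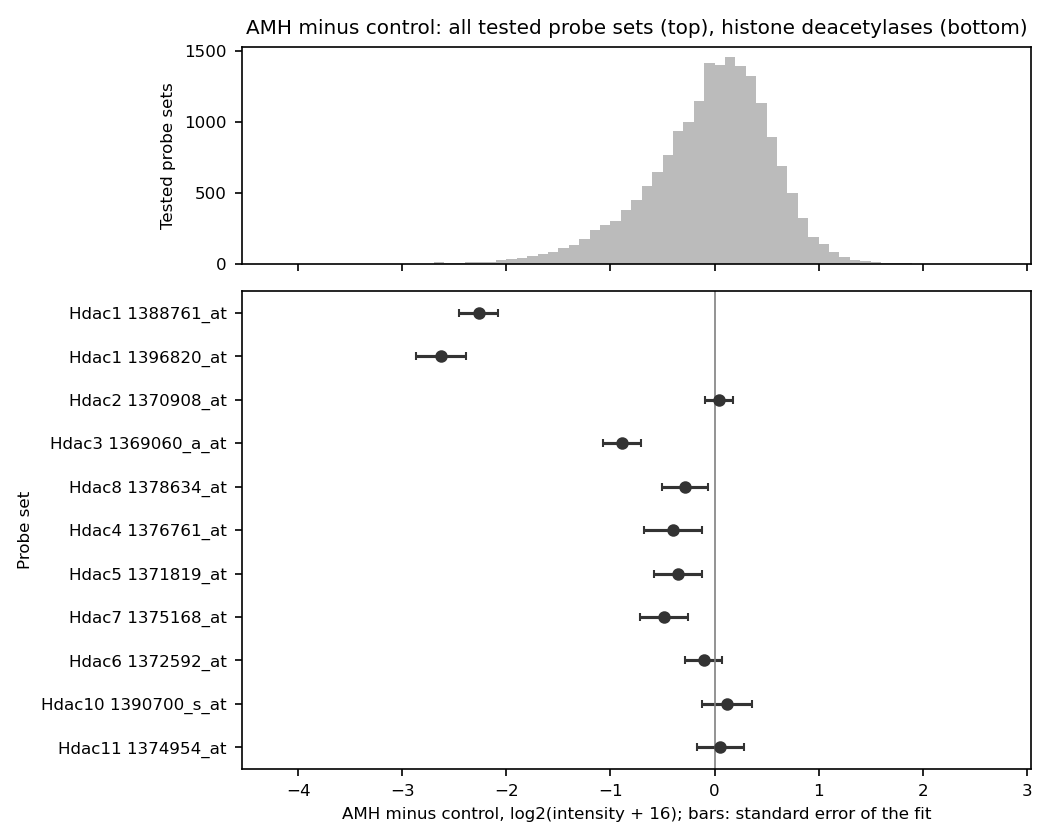
Top, number of tested probe sets by AMH minus control difference on the log2(intensity + 16) scale; bottom, the same difference for the 11 tested histone deacetylase probe sets with the standard error of the fit. The Hdac1 probe sets at -2.27 and -2.63 lie in the far left tail and Hdac3 at -0.89 in the left shoulder, while the other 8 lie between -0.49 and 0.12.

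Across the family, 3 of the 11 tested probe sets (both of Hdac1 and that of Hdac3) passed an adjusted p of 0.05 in limma in the lower direction, beside 12.8% of all 18625 tested probe sets, and 0 in the higher direction, beside 8.67%. At an unadjusted p under 0.05 the counts were likewise 3 and 0. Since the genes were chosen with this contrast known, nothing is read from these counts. Groups did not overlap for 6 of the 11 with AMH lower and for 1, Hdac2, with AMH higher, beside 31.2% and 32.2% of all tested probe sets. The median difference was -0.35 over the 11 probe sets and 0.02 over all tested probe sets. By gene, at the brightest probe set, it was -0.32 over the 10 genes and 0.07 over all 10622. The median log2 gap between replicate arrays for these probe sets was 0.05 for the control pair and 0.13 for the AMH pair, beside 0.17 and 0.26 over all tested probe sets. Some gaps were much wider: 0.75 for Hdac4 and 0.53 for the second Hdac1 probe set in the AMH pair. In the control pair they were 0.51 for Hdac5 and 0.39 for Hdac10.

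Leaving out arrays left the Hdac1 differences in place and ended the Hdac3 call in some fits. Without control replicate 1, or without control replicate 2, 2 probe sets passed in the lower direction, both of Hdac1, while Hdac3 kept its size (-0.87 and -0.92). In those fits the spread came from the AMH pools alone. Without AMH replicate 1 there were 4, with Hdac4 added, and without AMH replicate 2 there were 3. With hybridization control scaling 5 passed, with Hdac4 (-0.80) and Hdac7 (-0.88) added, in a fit that called 26.6% of all tested probe sets lower. The 3′ over 5′ ratios, the chip strings and the oocyte and red blood cell markers moved with AMH as given above, and their part in the Hdac1 and Hdac3 differences was not tested.

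**Figure D3:**
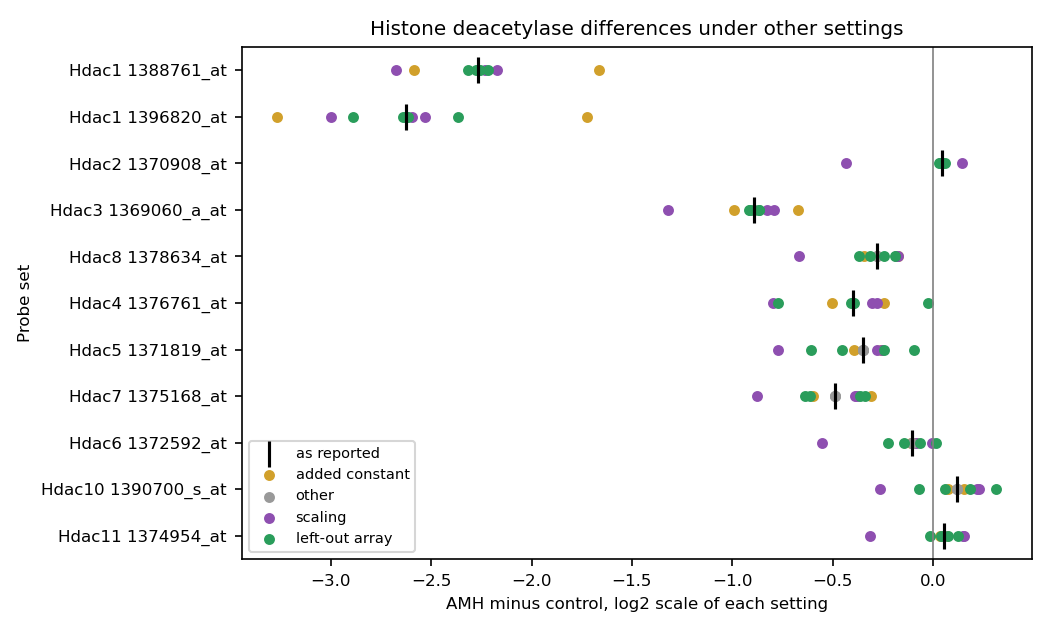
AMH minus control for each of the 11 tested histone deacetylase probe sets as reported (black bar) and under up to 13 other settings (dots coloured by kind of change, each on the log2 scale of its own setting). The Hdac1 probe sets stay between -3.26 and -1.66 and Hdac3 between -1.32 and -0.67, and the lowest Hdac2 value, -0.43, comes from hybridization control scaling.

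Genes that work with or against these enzymes were called in both directions. Their lists, like the deacetylases, were drawn up with earlier results of these arrays known, so counts and p-values are given as a description and not as independent support. In 10 lists of complex subunits, acetyltransferases, sirtuins, readers and substrates, 94 of 112 genes were tested at their brightest probe set, 23 were called lower and 15 higher (24.5% and 16%), beside 11.9% and 11% of all 10622 tested genes, with medians of 0.00 and 0.07. How these counts of genes moved beside the shares of all tested probe sets differed between settings. Those shares count probe sets, not genes as in the 11.9% and 11% above. With quantile normalization rises went from 15 to 13 while the share called higher went from 8.67% to 9.15%. With the lowest 60 percent left out falls went from 23 to 22 while the share called lower went from 12.8% to 15.3%. In the settings that follow both moved in the same direction. With hybridization control scaling limma called 34 falls and 0 rises (1 at an unadjusted p under 0.05), beside 26.6% and 0.779% of all tested probe sets. Without control replicate 1 there were 10 falls and 2 rises, beside 5.62% and 1.79%, and without control replicate 2 there were 13 and 4, beside 7.01% and 3.14%, against 12.8% and 8.67% with all arrays. Of the 23 falls 9 were called in every alternative, and no rise was called in all of them (Mbd2 in 13 of 14).

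Genes listed for the complexes that hold HDAC1 and HDAC2 were called in both directions. In the list for the complex that holds HDAC3, 2 genes were called lower, and the only 1 called higher was the transcription factor gene Bcl6. Of 13 Sin3 complex genes tested 5 fell, Brms1 (304.3 and 319.9 in control, 116 and 115.6 with AMH, -1.32 ± 0.17, limma adjusted p = 0.00208), Ing1, the scaffolds Sin3a and Sin3b, and Arid4a, and 4 rose, Suds3 (0.86 ± 0.16, adjusted p = 0.00957), Rbbp7, Brms1l and Sap30l. Of 11 NuRD genes Mta1 fell (147.4 and 138.8 to 48.5 and 48.8, -1.30 ± 0.20, adjusted p = 0.00445), and Mbd2 (1.04 ± 0.18, adjusted p = 0.00616), Rbbp7 and Cdk2ap1 rose. Of 8 CoREST and MiDAC genes Rcor1, the HDAC-binding scaffold (130.2 and 169.6 to 46.3 and 44.5, -1.42 ± 0.22, adjusted p = 0.00422), Gse1, Hmg20b and Dnttip1 fell, and the demethylase gene Kdm1a rose (0.69 ± 0.18, adjusted p = 0.0299). Of 5 genes listed for NCoR and SMRT, the HDAC3 complex, Tbl1x (-0.998 ± 0.16, adjusted p = 0.00508) and Tbl1xr1 fell. Bcl6 rose, with replicates far apart (95.7 and 201.7 in control, 522.2 and 277.3 with AMH), and Ncor1 was not called (0.27 ± 0.19, adjusted p = 0.332). The other tested Ncor1 probe sets had the opposite sign and were not called either (-0.70, adjusted p = 0.0919, and -0.57, adjusted p = 0.0506), and the mean over its probe sets was -0.34. The calls of Brms1, Ing1, Mta1, Rcor1, Gse1 and Tbl1x held in all 14 alternatives. Those of Sin3a, Sin3b, Arid4a, Brms1l, Sap30l, Rbbp7, Cdk2ap1, Hmg20b, Dnttip1, Kdm1a, Tbl1xr1 and Bcl6 were lost without control replicate 1 (adjusted p from 0.0537 to 0.309), and those of Sin3b, Arid4a, Suds3, Sap30l, Rbbp7, Cdk2ap1, Dnttip1, Kdm1a and Tbl1xr1 without control replicate 2 (0.0588 to 0.23). Without AMH replicate 1 Cdk2ap1 (0.0503) and Bcl6 (0.0693) were lost, and without AMH replicate 2 Arid4a (0.073) and Tbl1xr1 (0.0631). Across the 14 alternatives their lowest adjusted p was 0.00136 (Sin3a) and their highest 0.855 (Cdk2ap1). Further tested probe sets were not called for Ing1 (-0.31), Sin3b (-0.02), Gse1 (-0.49), Tbl1x (-0.76), Tbl1xr1 (-0.12, 0.04 and 0.29) and Suds3 (-0.20), the last and 2 of Tbl1xr1 with the opposite sign.

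**Figure D4:**
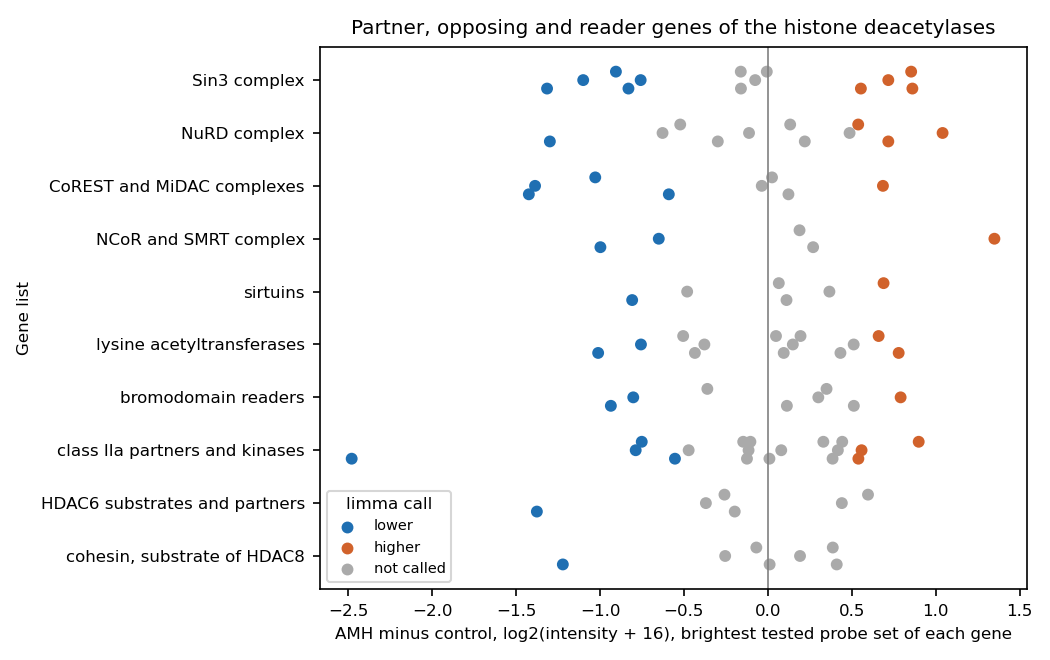
AMH minus control of each tested partner, opposing or reader gene at its brightest probe set, by list, on the log2(intensity + 16) scale; blue points were called lower, orange higher and grey not called by limma at an adjusted p of 0.05. Every list holds genes on both sides of 0, with Camk2g furthest left at -2.48 and Bcl6 furthest right at 1.35.

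Among genes that add, remove or read acetyl groups, the acetyltransferases Kat7 (-1.01 ± 0.19, adjusted p = 0.0095) and Kat6b fell and Kat2b (0.78 ± 0.16, adjusted p = 0.0136) and Ncoa1 rose, of 13 tested. Of 6 sirtuins Sirt6 fell (-0.81 ± 0.18, adjusted p = 0.0171) and Sirt5 rose (0.69 ± 0.17, adjusted p = 0.0225), and of 8 bromodomain genes Brd7 and Brd2 fell and Brd8 rose. Of 18 partners and kinases of the class IIa enzymes, Camk2g, a calcium-dependent kinase, fell furthest (250.8 and 297.2 to 50.7 and 24.3, -2.48 ± 0.27, adjusted p = 0.000988), with the phosphoserine adaptors Ywhag, Ywhah and Ywhaz, while Mef2a, Prkd3 and Camk2d rose. Mef2a depended on the probe set and was called in both directions: its brightest gave 0.90 ± 0.15 (adjusted p = 0.00618). Of the others, -0.37 was not called, and -0.87 (adjusted p = 0.0149) and -1.84 (adjusted p = 0.00693) were called lower. The mean over all its probe sets was -0.54. Of 6 HDAC6 substrates and partners Sqstm1 fell (-1.38 ± 0.16, adjusted p = 0.00158), and of 7 genes listed for cohesin Nipbl fell (-1.22 ± 0.20, adjusted p = 0.00499). There were 0 rises in either list (2 and 0 at an unadjusted p under 0.05). With the probe sets of a gene averaged, the limma call of Nipbl was lost (-0.58, adjusted p = 0.0589) and Stag1 was called higher (0.69, adjusted p = 0.0239). Smc3, the HDAC8 substrate, was level at its brightest probe set (0.01 ± 0.15), and its other tested probe set gave 0.49 ± 0.26 (adjusted p = 0.207). Other tested probe sets of Nipbl (-0.26 and 0.16), Sqstm1 (0.22), Camk2g (-0.48), Camk2d (-0.24), Ywhaz (-0.46), Ncoa1 (0.41) and Prkd3 (0.43 and 0.09) were not called. At the ends of their lists but not called were Mta3 (-0.52), Trerf1 (0.12), Sirt2 (-0.48), Sirt4 (0.37), Brpf3 (0.51), Plaa (-0.37), Prdx2 (0.44), Cttn (0.60), Esco2 (-0.25), Stag1 (0.39) and Smc1a (0.41). The other tested Plaa probe set had the opposite sign (0.45) and was not called either. Dimmer probe sets were called for 9 genes whose brightest was not. Hsp90ab1, the gene of an HSP90 chaperone, had the largest such difference: its second probe set read 1295.2 and 1192.2 in control and 155 and 159 with AMH (-2.86 ± 0.15, adjusted p = 0.000219), while its brightest gave -0.26. The others were lower for Cttn (-1.23), Kat6a (-1.12), Chd4 (-0.93), Ywhaq (-0.88), Ing2 (-0.83) and Ywhab (-0.77) and higher for Crebbp (1.09) and Stag1 (1.00), with adjusted p from 0.00523 to 0.0355. Without control replicate 1 the calls of Kat6b, Kat2b, Ncoa1, Sirt6, Sirt5, Brd7, Brd2, Brd8, Ywhag, Ywhah, Ywhaz, Mef2a, Prkd3 and Camk2d were lost (adjusted p from 0.0551 to 0.32), without control replicate 2 those of the same genes other than Ywhah and Mef2a (0.0545 to 0.204), and without AMH replicate 2 that of Camk2d (0.0657). Across the 14 alternatives the adjusted p of these genes was lowest at 0.00112 (Brd8) and highest at 0.851 (Camk2d), and Kat7, Camk2g and Sqstm1 were called in all 14.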

How the data were processed

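Each of 4 pools (2 control, 2 AMH) gave biotin-labelled RNA for 1 Affymetrix array, per the labels' protocols. The authors deposited linear intensities of probe sets, and no source used here names the summarising software. All arrays had the same mean without the lowest and highest 2 percent (125.03), which is how the authors' scaling was recognised. Groups and replicate numbers came from sample titles. Intensities were turned into log2(intensity + 16), 57 control probe sets and the dimmest 40 percent were left out, and the groups were compared by limma 3.58.1 under R 4.3.3 (lmFit, eBayes with an intensity trend, two-sided, Benjamini-Hochberg over 18625 probe sets, threshold 0.05, 2 residual and 6.33 prior degrees of freedom). With 2 arrays per group no permutation can reach a small p, so p-values rest on this pooled model, and the number of arrays limits precision.

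Names came from the platform annotation, probe sets with 1 symbol only (20832). All 10 genes matched a RefSeq symbol, 9 of them also by Entrez identifier. The deacetylases, the partner lists and the markers were chosen with earlier results of these data known. Partner genes stand at their brightest tested probe set, and those named are the ends of each list by moderated statistic and every called gene; Smc3 and the dimmer probe sets of partner genes were named after their values were seen. Replicate numbers are not said to pair the pools, and the main fit did not pair them. Same-numbered deviations correlated at -0.000816, which cannot show whether pools were collected in pairs. Alternatives covered the constant, filter, scaling, trend, block, probe set averaging and each array left out.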

Additional observations from a re-analysis of the deposited data

How the results depend on the processing

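The 14 alternatives changed the count of deacetylase probe sets called lower, 3 as reported, to 5 with hybridization control scaling and to between 2 and 4 with 1 array left out. Both Hdac1 probe sets were called in every one that fitted them singly, and 0 probe sets were called higher in any (0 also at an unadjusted p under 0.05). The gap between the Hdac1 probe sets was 0.68 with 1 added and 0.057 with 64 added, and 0.15 to 0.57 with 1 array left out. Partner genes called lower numbered 10 to 28 and called higher 2 to 18 with 1 array left out. With hybridization control scaling 0 were higher, and without the intensity trend 8. With the replicate block there were 3 deacetylase probe sets lower, and 21 partner genes lower and 11 higher. The mean of Mef2a over its probe sets was -0.54 in place of a rise. Of 697 refits of single partner genes, 580 kept their side of the threshold, 104 lost a call and 12 gained one. The cause of these shifts was not tested. Brightness near background limits the Hdac10 and second Hdac5 readings, and neither the end-to-end signal ratio nor the chip strings could be modelled.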
